A study of Mus musculus with 70 samples.

Results

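Lyn, a Src family tyrosine kinase best known from B cells and myeloid cells, was measured together with 4 relatives, Lck, Fyn, Yes1 and Fgr, and with Csk and Ptpn6, enzymes that restrain these kinases or act opposite them. The members were listed by name, and Lyn was chosen by its measured level, which had been seen higher in Tregs with ST2, the IL-33 receptor encoded by Il1rl1, than in Tregs without it. The 7 are among 53465 gene IDs in the deposited count table, and all 7 passed the filter on low values that left 13191 protein-coding genes to test. RNA came from Tregs of 5 male Foxp3-YFP-cre mice, which carried the Foxp3tm4(YFP/icre)Ayr allele on a B6.129(Cg) background and were aged 16.6 to 18.6 weeks, with no treatment named in the labels. Every group shares this allele, in which Foxp3 drives both the fluorescent protein and Cre, and no wild-type mouse is included.

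Cells were sorted as live CD45.2+ CD4+ YFP+ cells, with CD8+ and CD11b+ cells among those gated out, at 55 to 220 cells a library, into ST2+ CD44hi and ST2- CD44hi Tregs from blood, spleen, lungs, visceral adipose tissue (VAT), colon and back skin, and into resting ST2- CD44lo CD62L+ Tregs from spleen and lungs. These are 14 groups of 5 libraries, 1 per mouse. Of the 70 libraries, 67 held over 1000000 counts and were used. They held from 1304560 to 2759926 counts, with a median of 2039002. The 3 left out were 1 of blood ST2+ Tregs and 2 of colon ST2+ Tregs, so those groups had 4 and 3 libraries. Foxp3 was read in every library, at 106 to 415 CPM (counts per 1000000 counts, scaled between libraries by TMM factors). Il1rl1 ran from 223 to 1624 CPM in ST2+ libraries and from 0 to 200 CPM in ST2- CD44hi libraries, without overlap within any tissue. Cd8a had counts in 2 of 67 libraries.

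Src family kinases sit at the inner face of the cell membrane and phosphorylate the tyrosine motifs of antigen receptors. In T cells, Lck bound to CD4 starts signalling from the T cell receptor, and Fyn works beside it. Csk phosphorylates a tyrosine near the C-terminal end of each kinase, which folds the enzyme into its inactive form. Lyn also phosphorylates inhibitory receptor motifs, which recruit the phosphatase SHP-1, the product of Ptpn6.

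The 5 kinase genes code for closely similar C-terminal tails. The last 45 coding bases of each, from the GRCm38 genome and its GENCODE M21 annotation, are shown because they hold the site on which Csk acts and show how far the copies differ in letters. Capitals mark the codon of that tyrosine, which is followed by 4 codons before the stop in Lyn and Lck and by 6 in Fyn, Yes1 and Fgr.
Lyn, chr4:3789900-3789944, + strand: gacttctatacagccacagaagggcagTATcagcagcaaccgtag
Lck, chr4:129548798-129548842, - strand: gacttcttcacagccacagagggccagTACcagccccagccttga
Fyn, chr10:39563928-39563972, + strand: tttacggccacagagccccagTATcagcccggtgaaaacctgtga
Yes1, chr5:32684715-32684759, + strand: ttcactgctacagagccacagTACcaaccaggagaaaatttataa
Fgr, chr4:133000299-133000343, + strand: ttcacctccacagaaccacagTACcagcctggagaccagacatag
Among the 7 genes' transcripts, the longest exact run of bases that any pair shared was 23, between Lyn and Lck, against reads of 58 bases before trimming. No read longer than 23 bases could therefore match 2 of these transcripts exactly along its whole length. The paper trimmed reads by base quality and adapter, and the lengths left after trimming were not examined here.

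Lyn (ENSMUSG00000042228) lies at chr4:3678115-3813122 on the + strand, with 4073 exonic bases. It had counts in 58 of 67 libraries, with a median of 92 and a highest value of 771 counts. Lck (ENSMUSG00000000409, chr4:129548344-129573641, - strand) and Fyn (ENSMUSG00000019843, chr10:39368855-39565381, + strand) had counts in all 67. So did Csk (ENSMUSG00000032312, chr9:57626646-57653631, - strand) and Ptpn6 (ENSMUSG00000004266, chr6:124720707-124738714, - strand). Yes1 (ENSMUSG00000014932, chr5:32611171-32687057, + strand) had counts in 54 libraries, at a median of 8 counts, and Fgr (ENSMUSG00000028874, chr4:132974095-133001910, + strand) in 29, at a median of 0. The libraries did not keep the strand of the RNA, so reads of Lyn and of the antisense gene Gm26857, which had counts in 42 libraries and at most 100 counts, cannot be told apart where they overlap.

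Per length of exon, Lck was the most abundant of the 7, with a median level of 290 CPM per kb over the 67 libraries. Fyn followed at a median level of 94.6 CPM per kb, Ptpn6 at 90.9 and Csk at 43.8. Lyn had a median level of 12.5 CPM per kb but reached 80.8 in its highest library. Yes1 and Fgr stood far lower, at median levels of 0.535 and 0 CPM per kb. Lck thus led the kinases in every group, and its share of the summed per-length level of the 5 kinases ran from 60.1% ± 3.03 (SD, n = 5) in skin ST2+ Tregs to 76.3% ± 1.21 (SD, n = 5) in spleen CD44lo Tregs. The share held by Lyn ran the other way. It was 0% in spleen CD44lo Tregs, 0.76% ± 0.158 in spleen ST2- and 2.76% ± 0.651 in spleen ST2+ CD44hi Tregs, and it reached 12.7% ± 2.05 in skin ST2- and 18.1% ± 1.16 in skin ST2+ Tregs (SD, n = 5 each). Bulk levels such as these cannot tell fewer positive cells from less RNA per cell.

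Lyn was absent or nearly so in resting Tregs, low in blood, spleen and lung ST2- CD44hi Tregs, and highest in skin. Of ST2- CD44hi Tregs, the 5 blood libraries held 0, 5.87, 8.25, 8.72 and 11.8 CPM, the spleen libraries 10.1, 11.1, 12.0, 15.4 and 16.0 CPM, and the lung libraries 2.65, 5.80, 9.79, 22.7 and 24.4 CPM. The colon libraries held 32.8, 36.3, 53.6, 71.1 and 73.2 CPM, and those of VAT spread widely, at 12.5, 38.5, 69.2, 70.9 and 105 CPM. The 5 skin libraries, at 185, 201, 206, 214 and 269 CPM, lay above every ST2- library of the other tissues.

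In ST2+ Tregs the order was nearly the same on a higher base. The 4 blood libraries held 42.7, 69.2, 76.2 and 108 CPM, the spleen libraries 33.4, 39.2, 41.9, 50.7 and 57.1 CPM, and the lung libraries 63.6, 70.8, 80.0, 87.6 and 94.6 CPM. VAT gave 110, 115, 157, 162 and 207 CPM, the 3 colon libraries 118, 120 and 124 CPM, and skin 291, 298, 308, 323 and 329 CPM. In both populations skin stood above VAT without overlap and colon above lungs without overlap, whereas VAT and colon overlapped, as did neighbours among lungs, spleen and blood.

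**Figure D1:**
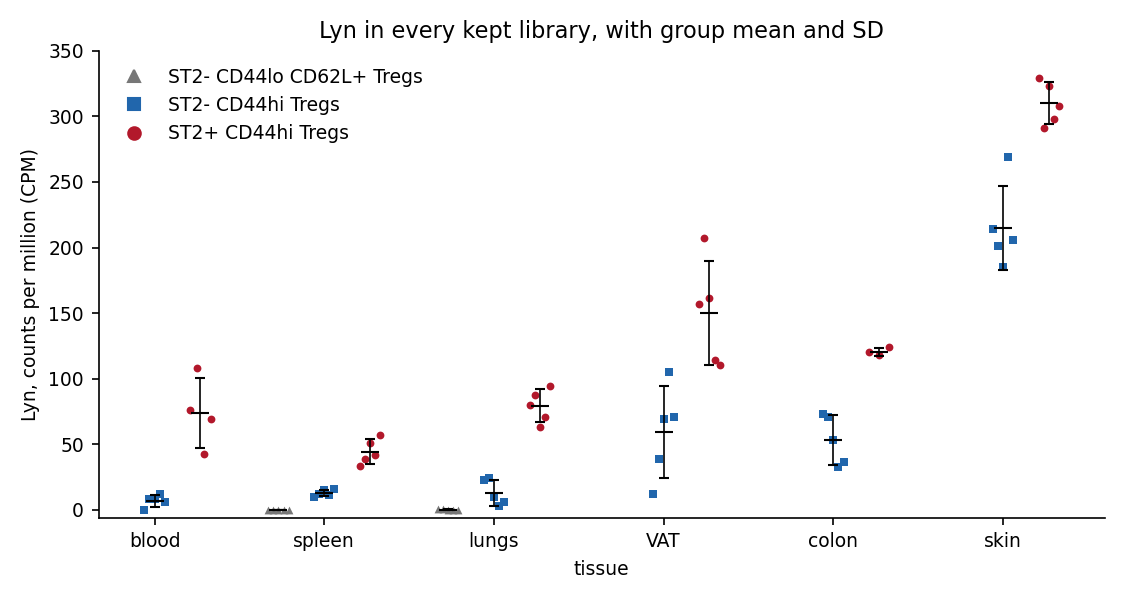
Lyn level in CPM (linear axis) in each of the 67 libraries (points) by tissue and population, with the mean and SD of each group (lower bars end at 0). The skin libraries lie highest in both populations (185 to 329 CPM), and every ST2+ library lies above the ST2- libraries of its own tissue.

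Within each tissue the ST2+ libraries stood above all ST2- CD44hi libraries, in 6 of 6 tissues, and Lyn was higher in the ST2+ sample in 27 of 27 pairs from the same mouse. The group means were 74.0 ± 26.8 (n = 4) against 6.93 ± 4.41 CPM (n = 5) in blood, 44.5 ± 9.44 against 12.9 ± 2.65 in spleen and 79.3 ± 12.5 against 13.1 ± 9.92 in lungs (SD, n = 5 each). The gap narrowed in proportion where the ST2- level was already high, with 150 ± 39.8 against 59.2 ± 35.2 CPM in VAT (n = 5 each), 121 ± 3.14 (n = 3) against 53.4 ± 18.9 (n = 5) in colon and 310 ± 16.1 against 215 ± 32.0 in skin (n = 5 each). The ratios of means were 10.7, 3.44, 6.07, 2.54, 2.26 and 1.44 in that order of tissues.

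Lyn was chosen for this contrast, so these values are a description and no p is given. The fitted log2 differences were 0.53 (SE 0.36) in skin, 1.18 (0.42) in colon, 1.34 (0.37) in VAT, 1.78 (0.39) in spleen, 2.64 (0.41) in lungs and 3.42 (0.45) in blood. By the rule used for all genes, a fold of at least 1.5 and an adjusted p of at most 0.05 from edgeR's quasi-likelihood test, Lyn was the 1 member of 7 that met it in blood, spleen, lungs and VAT, and no member met it in colon or skin. Nothing is read from these counts, since this contrast chose Lyn. The share of all 13191 genes that met it was 4.06% for blood, 0.349% for spleen, 0.751% for lungs, 3.13% for VAT, 0.0682% for colon and 0.227% for skin. The median difference over the 7 members lay between -0.32 (colon) and 0.30 (lungs), beside medians over all genes between -0.01 and 0.03.

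Of the other members, Yes1 had a higher mean in ST2+ Tregs in 5 of 6 tissues. The ST2+ sample held more of it in 18 of 27 pairs and less in 7, with 5 of 5 mice higher both for spleen and for lungs, but the libraries overlapped in each tissue. In lungs the ST2+ libraries held 8.35, 14.2, 17.9, 18.5 and 21.9 CPM and the ST2- libraries 2.60, 2.68, 5.71, 7.96 and 8.57 CPM. The ratios of Yes1 means were 4.74 for spleen, 2.94 for lungs, 4.77 for VAT, 1.23 for colon and 0.723 for skin, with fitted log2 differences of 2.17 (SE 1.05), 1.54 (0.97), 2.22 (0.99), 0.30 (1.09) and -0.47 (0.94). In blood its level was 0, 0, 0.458 and 11.1 CPM in ST2+ Tregs, beside 1 count in all in ST2- Tregs. Lck means were lower in ST2+ Tregs in 6 of 6 tissues and in 24 of 27 mouse pairs, but the ratios of means lay between 0.794 in colon and 0.954 in spleen, and the libraries were apart only in VAT and colon. In VAT, where the mean of Lck in ST2+ Tregs was lowest, the ST2+ libraries held 685, 719, 732, 737 and 739 CPM and the ST2- libraries 819, 845, 846, 851 and 966 CPM. Fyn means were likewise lower in ST2+ Tregs in 6 of 6 tissues, in 20 of 27 pairs, with overlap in each tissue. Csk was higher in 15 of 27 pairs and Ptpn6 lower in 20 of 27, both with overlap in all 6 tissues. Fgr had no count in any VAT ST2+ or blood ST2+ library, against 0.665, 5.93, 6.93, 7.39 and 16.7 CPM in VAT ST2- Tregs. Pooled over those 5 VAT ST2+ libraries, a floor of 3 counts puts Fgr at least 25.3-fold lower there than in VAT ST2- Tregs.

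**Figure D2:**
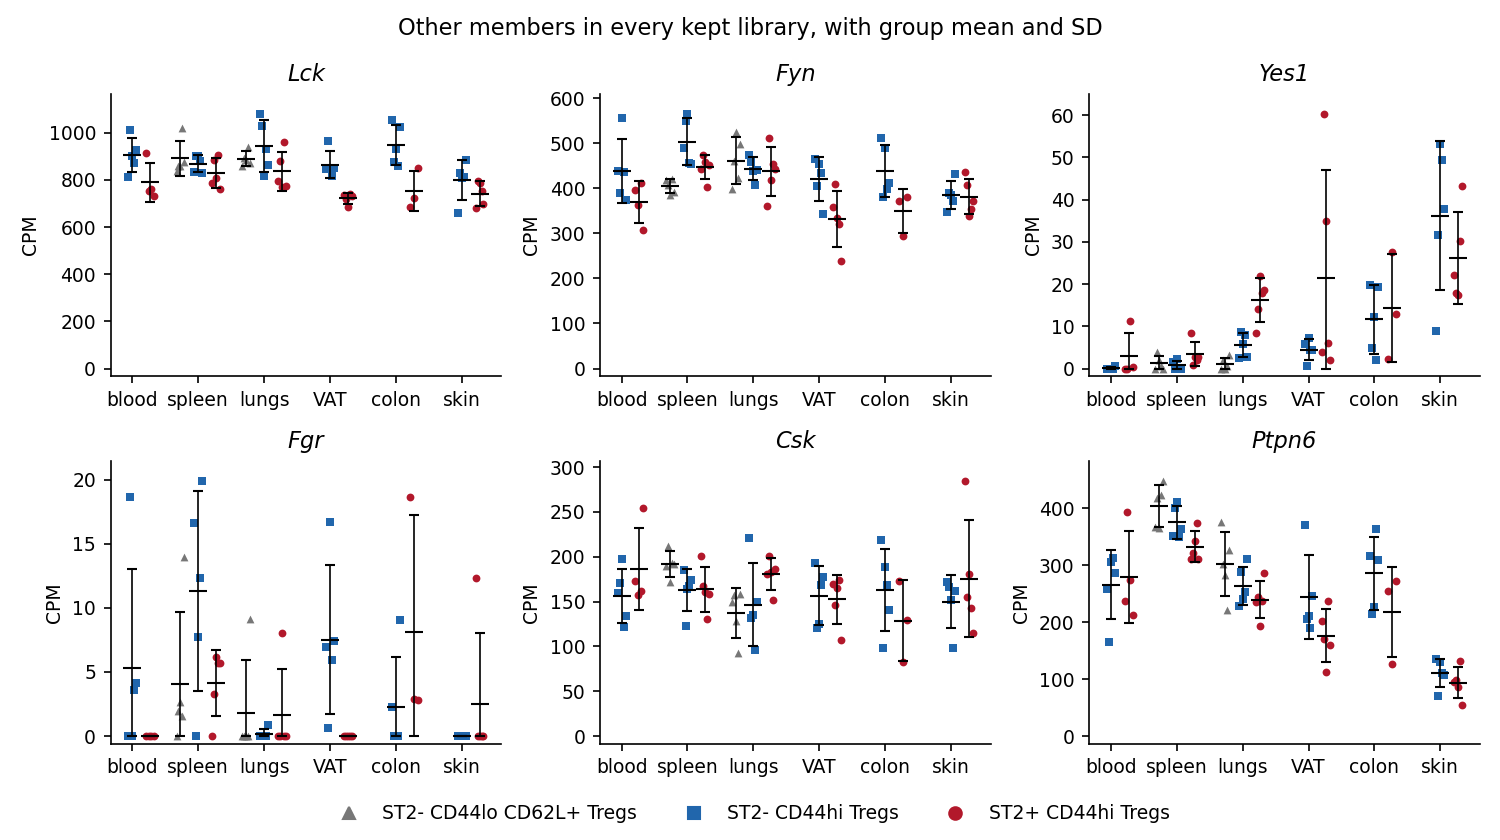
Levels of Lck, Fyn, Yes1, Fgr, Csk and Ptpn6 in CPM in the 14 groups, each point a library and each bar the group mean with its SD (lower bars end at 0, and each gene has its own axis). Lck, Fyn and Csk vary little between groups, Ptpn6 is lowest in skin (93.4 CPM in ST2+ Tregs), and Yes1 is high in skin.

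The rule that chose these genes did not use the tissues, so differences between tissues were tested. In 1 joint test over the 6 tissues, 4 of 7 members differed among ST2- CD44hi Tregs and 4 of 7 among ST2+ Tregs, namely Lyn, Ptpn6, Yes1 and Fgr in each. Across all genes this test called 40.9% among ST2- and 45.4% among ST2+ Tregs, so 4 of 7 is not far from the background. Among ST2+ Tregs, Yes1 had an edgeR adjusted p = 0.0407, which became 0.0682 with the mouse as a block and 0.166 to 0.193 without mouse 2, 3 or 5. With the summed levels of myeloid and B cell markers as covariates, the edgeR adjusted p of Yes1 was 0.323. Fgr was lost among ST2+ Tregs without mouse 2, 4 or 5 (edgeR adjusted p from 0.0587 to 0.103), and among ST2- Tregs without mouse 3 or 4 (0.0757 and 0.109). Lck, Fyn and Csk were not called in either population. Fyn among ST2+ Tregs had an adjusted p = 0.0045 by edgeR, but its tissues spanned only 0.43 on the log2 scale.

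Each tissue was then set against spleen, and these comparisons share the spleen libraries. In ST2- CD44hi Tregs, Lyn was higher than in spleen by a log2 difference of 2.19 (SE 0.40) in VAT, 2.05 (0.40) in colon and 4.05 (0.42) in skin, with edgeR adjusted p = 7.5e-05, 0.000161 and 1.15e-11. Blood, at -0.91 (0.44), and lungs, at -0.03 (0.41), did not pass. In ST2+ Tregs the differences from spleen were smaller, at 1.75 (0.37) in VAT, 1.45 (0.41) in colon and 2.80 (0.39) in skin, with edgeR adjusted p = 0.000546, 0.0161 and 4.69e-08. Blood ST2+ Tregs, at 0.73 (0.39), and lung ST2+ Tregs, at 0.83 (0.37), did not pass. The colon value rests on 3 libraries, and without mouse 3 or mouse 4 its adjusted p was 0.113 or 0.0628. With the myeloid and B cell sums as covariates it was 2.01 (0.65), and the call was lost (edgeR adjusted p = 0.0588).

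Ptpn6, whose product removes phosphate from receptors and kinases, ran opposite to Lyn across tissues. Its libraries held 350, 352, 363, 400 and 412 CPM in spleen ST2- Tregs and 71.0, 107, 110, 129 and 135 CPM in skin ST2- Tregs. In ST2+ Tregs they held 311, 312, 322, 342 and 375 CPM in spleen and 55.1, 86.9, 95.6, 97.8 and 132 CPM in skin. Skin lay below spleen without overlap in both. The log2 differences of skin from spleen were -1.76 (SE 0.20) in ST2- and -1.84 (0.20) in ST2+ Tregs, with edgeR adjusted p = 1.6e-10 and 6.22e-11. In VAT, Ptpn6 fell by 0.62 (SE 0.19, edgeR adjusted p = 0.0383) in ST2- Tregs, a call lost without any of mice 2 to 5 (adjusted p from 0.111 to 0.169), and by 0.91 (0.20, adjusted p = 0.000489) in ST2+ Tregs. In colon ST2+ Tregs its difference of -0.59 (0.23) had an adjusted p = 0.084, and with the mouse as a block -0.66 (0.23) with an adjusted p = 0.0419.

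Yes1, a kinase found in many cell types, was read at low counts and was highest in skin ST2- Tregs, where the libraries held 8.94, 31.6, 37.9, 49.4 and 53.3 CPM. Spleen ST2- libraries held 0, 0, 0, 1.44 and 2.14 CPM, and colon ST2- libraries 2.10, 4.91, 12.1, 19.4 and 19.7 CPM. The log2 differences from spleen were 5.55 (SE 1.17, edgeR adjusted p = 0.000137) in skin and 3.93 (1.10, adjusted p = 0.0114) in colon. In colon this call was lost without mouse 5 (adjusted p = 0.0853). In ST2+ Tregs skin held 17.4, 17.95, 22.2, 30.2 and 43.2 CPM against 0.944, 2.07, 2.69, 2.84 and 8.44 CPM in spleen, without overlap. That difference of 2.91 (1.02) had an adjusted p = 0.0223, which was lost without mouse 2, 3, 4 or 5 (0.0532 to 0.0921). With the myeloid and B cell sums as covariates the difference was 1.25 (1.19) and not called (edgeR adjusted p = 0.492).

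Fgr, a kinase of neutrophils, monocytes and B cells, had 0, 7.71, 12.3, 16.6 and 19.9 CPM in spleen ST2- Tregs and no count in any skin ST2- library. With a floor of 3 counts over the 5 skin libraries, skin was at least 32.1-fold lower than spleen (edgeR adjusted p = 0.00853). With the myeloid and B cell sums as covariates this call was lost (adjusted p = 0.137), as was that of Fgr over the 6 tissues in ST2- Tregs (0.171). In ST2+ Tregs Fgr was at 0, 3.30, 5.68, 5.70 and 6.15 CPM in spleen and without counts in VAT, at least 14.02-fold lower. That last call (adjusted p = 0.0454) did not hold in 11 of the alternatives tried, each single mouse left out among them. Counts of Fgr came from 0 or 1 library in several groups, such as 12.4 CPM in 1 skin ST2+ library and 0 in the other 4.

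Lck, Fyn and Csk met the call rule in none of these 10 comparisons. Lck means ran from 722 ± 22.4 CPM (SD, n = 5) in VAT ST2+ to 949 ± 85.6 CPM (n = 5) in colon ST2- Tregs, a ratio of 1.31, and Csk means from 128 ± 45.2 (n = 3) in colon ST2+ to 192 ± 14.3 CPM (n = 5) in spleen CD44lo Tregs, a ratio of 1.49. Fyn was lower than in spleen by -0.39 (SE 0.11) in skin ST2- and -0.43 (0.11) in VAT ST2+ Tregs, with edgeR adjusted p = 0.00427 and 0.00391, folds of 1.31 and 1.35 that lie under the 1.5 required.

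In counts of members called, blood and lungs gave 0 of 7 in both populations by edgeR. At an unadjusted edgeR p under 0.05 there were 2 in blood and 3 in lungs in either population. Of all 13191 genes, 2361 in blood and 2202 in lungs reached that p in ST2- Tregs, and 2476 and 2528 in ST2+ Tregs. DESeq2 called 0 in each, and limma-voom called 0 in blood and 2 in lungs (Yes1 and Fgr in ST2- Tregs, Lyn and Yes1 in ST2+ Tregs). No share over all genes is given for the limma-voom calls. By the edgeR call rule, VAT gave 2 in ST2- and 3 in ST2+ Tregs, colon 2 and 1, and skin 4 and 3. The same rule called 3.57%, 4.12%, 5.96%, 11.1% and 30.9% of all genes in blood, lungs, VAT, colon and skin ST2- Tregs, and 4.21%, 4.9%, 11.3%, 10.4% and 29% in ST2+ Tregs. Skin had the most calls among all genes in both populations, and among members in ST2- Tregs. The members' median log2 difference from spleen in skin was -0.12 in ST2- and -0.16 in ST2+ Tregs, beside a median of 0 over all genes.

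**Figure D3:**
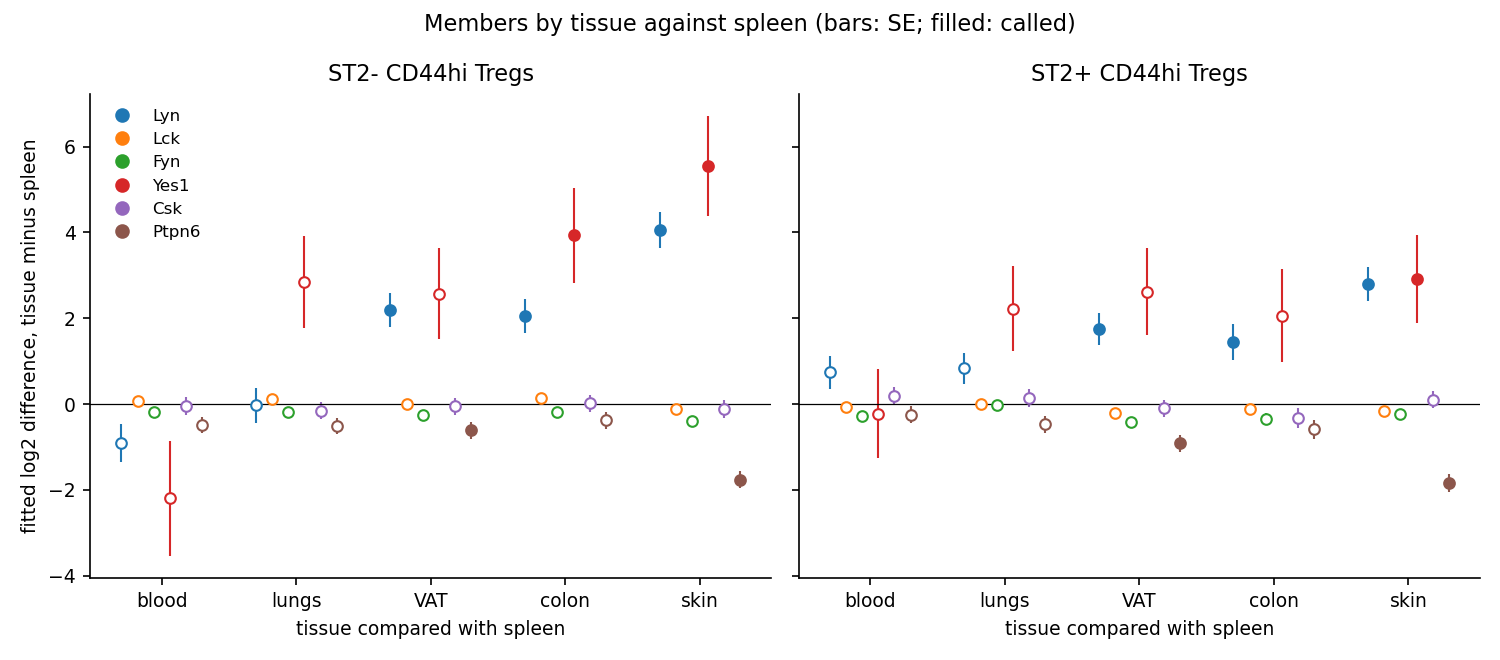
Fitted log2 difference of each tissue from spleen for 6 of the genes (Fgr, with groups at 0, is left out), with the standard error, in ST2- CD44hi and ST2+ CD44hi Tregs. In skin, Yes1 (5.55 and 2.91) and Lyn (4.05 and 2.80) lie furthest above spleen and Ptpn6 (-1.76 and -1.84) lies below it, while Lck, Fyn and Csk stay near 0.

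Activated CD44hi Tregs were also compared with resting CD44lo CD62L+ Tregs, which carry the naive-type homing receptor CD62L. In spleen, none of the 5 CD44lo libraries held a Lyn count among 11672337 counts in all. With a floor of 3 counts, or 0.241 CPM, Lyn was at least 53.7-fold higher in spleen ST2- CD44hi Tregs and at least 185-fold higher in spleen ST2+ Tregs. In lungs the CD44lo libraries held 0, 0, 0, 0.364 and 0.508 CPM, 2 counts among 11165151. The ratio of pooled CPM was 66.3 for lung ST2- CD44hi Tregs (95% counting interval 17.9 to 554) and 448 for lung ST2+ Tregs (124 to 3703). Such intervals and floors cover counting error only, and reads amplified from few cells are not independent molecules. CD44hi and CD44lo libraries did not overlap in either tissue. The tests of ST2- CD44hi against CD44lo Tregs gave edgeR adjusted p = 3.41e-09 in spleen and 7.04e-08 in lungs. Lyn was the 1 member of 7 called in each tissue, beside 4.97% of all genes in spleen and 5.56% in lungs.

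Because Lyn is a kinase of macrophages, granulocytes and B cells, its level was set beside 25 myeloid markers. Of these, 8 were taken as defining macrophages, monocytes and granulocytes (Csf1r, Adgre1, Itgam, Csf3r, Cd14, C1qa, C1qb and C1qc), and none of the 8 had a count in 22 of the 67 libraries. Those 22 were not free of the other markers, since the summed level of all 25 ran from 0 to 332 CPM in them. Lyn in those 22 ran from 0 to 214 CPM, with a median of 11.9 CPM. It lay at 39.2 and 50.7 CPM in 2 spleen ST2+ libraries, 70.8 and 87.6 CPM in 2 lung ST2+ libraries, 76.2 CPM in 1 blood ST2+ library, and 206 and 214 CPM in 2 skin ST2- libraries. The rest were CD44lo libraries and blood, spleen, lung and VAT ST2- CD44hi libraries, with Lyn at 0 to 38.5 CPM. No skin ST2+, VAT ST2+ or colon library was among the 22. Csf1r, the macrophage growth factor receptor, was at 0 in 57 of 67 libraries. Csf1r was at 0 in every blood, spleen and lung library, in every VAT and skin ST2- library and in 4 of 5 skin ST2+ libraries, where Lyn was 291 to 329 CPM.

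The mean myeloid sum was lower in ST2+ than in ST2- Tregs in blood, spleen and lungs and higher in VAT, colon and skin. In spleen the sums lay at 69.4 to 124 CPM against 152 to 269 CPM without overlap, a difference of -84.8 CPM (two-sided exact permutation p = 0.00794, adjusted over 6 tissues p = 0.0476). That unadjusted p is the smallest that groups of this size can give. With any 1 of the 5 mice left out, the difference was -98.1 to -69.8 CPM and not called (exact permutation adjusted p from 0.0857 to 0.171). Groups that small can hardly pass after adjustment, so this loss does not tell whether the call is stable. The call was also lost as a mean of log2 CPM over the list, which differed by -0.0702 (exact permutation adjusted p = 0.595). Most of that sum was Cybb, at 60.1 to 98.7 against 135 to 249 CPM. In lungs the sums were 77.9 to 121 CPM in ST2+ and 71.4 to 179 CPM in ST2- Tregs. In blood they were 145 to 206 and 77.4 to 541 CPM, with medians of 193 and 209 CPM. Skin, with the highest Lyn, had sums of 107 to 379 CPM in ST2+ and 46.9 to 174 CPM in ST2- Tregs, and its largest contributor was Xcr1, a dendritic cell receptor, at 39.6 to 140 and 35.5 to 60.9 CPM. None of these 3 tissues passed the same test (exact permutation adjusted p = 0.746 in blood, 0.214 in lungs and 0.214 in skin). Markers with counts numbered 8 of 25 in blood ST2+, 9 in spleen ST2+, 11 in lung ST2+ and 21 in skin ST2+ Tregs. In CD44lo Tregs the sums were 5.44 to 23.4 CPM in spleen and 0 to 114 CPM in lungs.

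In VAT and colon, some ST2+ libraries held more myeloid RNA. The 3 colon ST2+ libraries held a myeloid sum of 1741 to 2313 CPM, with 23 of 25 markers read, against 78.8 to 485 CPM in colon ST2- Tregs (difference 1787 CPM, exact permutation p = 0.0357, the smallest that 3 against 5 can give, adjusted p = 0.107). Those 3 libraries held Csf1r at 72.7 to 196 CPM beside Lyn at 118 to 124 CPM, and the part of myeloid RNA in the colon value of Lyn was not tested. Among colon ST2- libraries, the 3 with Csf1r counts had Lyn at 53.6 to 73.2 CPM and the 2 without had 32.8 and 36.3 CPM. In VAT the sums were 199 to 823 CPM in ST2+ and 56.0 to 423 CPM in ST2- Tregs (exact permutation adjusted p = 0.714). By edgeR, Csf1r was called higher in VAT ST2+ than in VAT ST2- Tregs, 1 of 21 myeloid markers tested, beside 3.13% of all genes. In blood, Tyrobp was called lower in ST2+ Tregs. The 3 VAT ST2+ libraries with Csf1r counts had Lyn at 157 to 207 CPM and the 2 without had 110 and 115 CPM, which still lay above all 5 VAT ST2- libraries. When all libraries with a myeloid sum over 235 CPM were left out, 2 ST2+ and 1 ST2- VAT libraries remained and the fitted difference in VAT was 0.39 (SE 0.56) in place of 1.34.

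**Figure D4:**
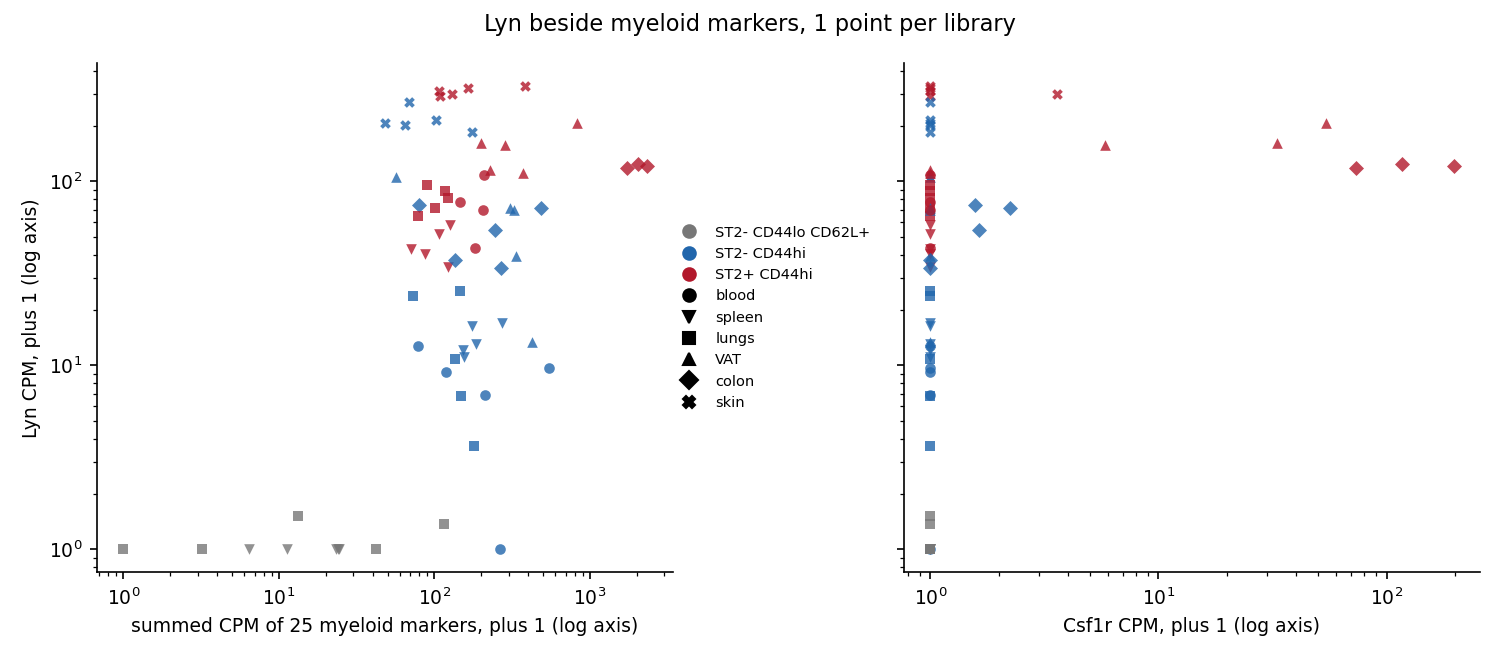
Lyn level against the summed level of 25 myeloid markers (left) and against Csf1r (right), all in CPM + 1 on log axes. Each point is a library, with its color giving the population (ST2+ CD44hi, ST2- CD44hi or CD44lo) and its shape the tissue. In the left panel the 3 colon ST2+ libraries lie alone at the high end (1741 to 2313 CPM), while skin libraries with Lyn from 185 to 329 CPM lie at myeloid sums of 46.9 to 379 CPM.

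Across libraries, which share tissue, sort and depth, Pearson's r between log2 levels of Lyn and of the myeloid sum was 0.56 over all 67, 0.29 over the 27 ST2+ and -0.37 over the 30 ST2- CD44hi libraries. It was 0.55 over 64 libraries without colon ST2+ and 0.66 over 57 libraries without skin. Spearman's rho was 0.32 over all 67, 0.50 over the ST2+, -0.30 over the ST2- CD44hi libraries and 0.52 without skin. For the 13 B cell markers r was -0.25 over 67 libraries. Ighm was read in all 67 libraries, whereas Pax5 had counts in 5 and Ms4a1 in 8. For the 11 markers of mast cells and granulocytes r was 0.63 over 67 libraries, 0.70 over the 27 ST2+ and 0.80 over the 30 ST2- CD44hi libraries, and mast cells themselves express Lyn and ST2. Few genes made up this list's sum. Hdc had counts in 56 libraries, Kit in 32 and Cpa3 in 31, whereas Ms4a2, Mcpt4 and Cma1 each had counts in 2 and Fcer1a and Epx in none. The sum was higher in ST2+ Tregs in lungs, at 24.6 ± 12.7 against 6.35 ± 2.96 CPM (SD, n = 5 each, exact permutation adjusted p = 0.0476), with counts for 3 of the 11 markers in either population. In skin the sum was 297 ± 446 CPM in ST2+ against 54.1 ± 19.9 CPM in ST2- Tregs (SD, n = 5 each, exact permutation adjusted p = 0.0952). Cpa3 was called higher in skin ST2+ Tregs by edgeR, 1 of 4 markers tested, beside 0.227% of all genes. In skin ST2+ Tregs 1 library reached 1093 CPM on that list and held Lyn at 298 CPM, within the range of the other 4 (291 to 329 CPM). Those 4 held 61.4 to 128 CPM on the list, and the skin ST2- libraries 38.6 to 87.4 CPM. The part of mast cell RNA in the Lyn levels was not tested. Platelet markers summed to 486 ± 192 CPM (n = 4) in blood ST2+ and 168 ± 99.6 CPM (n = 5) in blood ST2- Tregs (SD, exact permutation adjusted p = 0.238).

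Of the other Src family kinases, Src itself was also high in skin Tregs. Its level was 71.5 ± 8.36 CPM in skin ST2- and 81.8 ± 30.4 CPM in skin ST2+ Tregs (SD, n = 5 each), and its mean was at most 15.4 CPM elsewhere. Src was called higher in skin than in spleen in both populations, and Frk in skin ST2- Tregs. Blk, a kinase of B cells, had counts in 16 libraries and did not pass the filter. Neither Src nor Frk was called by edgeR between ST2+ and ST2- Tregs in any tissue.

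Around the kinases, 3 lists were followed, of 20 regulators, of 22 substrates and partners, and of 13 receptors with an inhibitory motif. All were tested but 1 of the receptors. In blood, 3 of 20 regulators were higher in ST2+ than in ST2- Tregs (Unc119, Matk and Sla2) and 1 lower (Cblb), 2 of 22 substrates and partners were lower, Tec among them, and 2 of 12 inhibitory receptors were higher (Klrg1 and Lilrb4a). Over all 13191 genes, 309 were higher and 227 lower in blood, or 4.06%. The median log2 differences in blood were 0.19 for regulators, -0.13 for substrates and partners and -0.55 for inhibitory receptors, beside 0 for all genes. In VAT 1 regulator was higher (Ubash3b) and 3 lower (Cblb, Ptpn22 and Lax1), 2 substrates and partners were lower (Themis and Txk) and 2 inhibitory receptors were lower (Btla and Lair1). There 168 of all genes were higher and 245 lower, or 3.13%. The median log2 differences in VAT were -0.35, -0.12 and 0.02 for the 3 lists, beside -0.01 for all genes. Klrg1 alone was called in spleen and in lungs, Cblb alone in colon, and none in skin. The nearest of the named genes in skin was Themis, at a log2 difference of -1.58 (SE 0.41, edgeR adjusted p = 0.0862).

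Cblb, a ubiquitin ligase that dampens T cell receptor signalling, fell in ST2+ Tregs of 3 tissues. It was at 147 to 222 CPM against 248 to 478 CPM in blood, 63.8 to 218 against 330 to 467 CPM in VAT and 154 to 179 against 296 to 468 CPM in colon, without overlap. The log2 differences were -1.14 (SE 0.21), -1.35 (0.20) and -1.14 (0.24), with edgeR adjusted p = 0.000403, 5.39e-06 and 0.0184. In lungs the difference was -0.73 (0.20, edgeR adjusted p = 0.052), and it passed with the mouse as a block (-0.74, adjusted p = 0.0426). In skin Cblb was at 358 to 667 and 345 to 644 CPM.

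Klrg1, an inhibitory receptor of activated lymphocytes, was called in blood, spleen and lungs. ST2+ libraries held 455 to 532 CPM in blood, 367 to 512 in spleen and 431 to 586 in lungs, against 0.623 to 42.8, 24.6 to 123 and 7.96 to 66.0 CPM. The log2 differences were 5.35 (SE 0.62), 3.24 (0.53) and 3.93 (0.55), with edgeR adjusted p = 1.86e-08, 0.00017 and 4.67e-06. In VAT the difference of 1.56 (0.48) had an adjusted p = 0.0536 and, with the mouse as a block, 1.70 and 0.0161.

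The remaining named genes were each called in a single tissue. In VAT, Lax1, an adaptor that limits antigen receptor signals, fell by 1.54 on the log2 scale (SE 0.24, edgeR adjusted p = 9.93e-06). Themis, which binds SHP-1 in T cells, fell by 1.80 (0.40), and Ptpn22, a phosphatase that acts with Csk, fell by 0.63 (0.15). Txk, a Tec family kinase, fell by 1.47 (0.38) and the inhibitory receptor Btla by 1.82 (0.33). Lair1, a collagen receptor, was at 0 to 0.402 CPM in VAT ST2+ and 0 to 29.6 CPM in VAT ST2- Tregs. In colon Lair1 lay the other way, at 15.7 to 78.1 CPM in ST2+ and 0 to 0.84 CPM in ST2- Tregs, but did not pass (edgeR adjusted p = 0.14), and the colon ST2+ libraries were those with high myeloid sums. In blood, Unc119, an activator of Lck and Fyn, was higher by 0.97 (0.23) and the receptor Lilrb4a by 2.63 (0.72), whereas the kinase Tec was lower, by -1.13 (0.31). All of these but Lair1 in colon passed the call rule of edgeR. Cbl and Plcg1 in VAT passed with the mouse as a block but not without it (adjusted p = 0.0479 and 0.0125).

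Between activated and resting ST2- Tregs, the regulators and inhibitory receptors that were called were all higher in activated cells, as were most genes of any kind that were called (for spleen 571 were higher and 84 lower, for lungs 639 and 94). In spleen 6 regulators were higher in CD44hi Tregs (Unc119, Matk, Ptpn22, Ubash3b, Ptpn11 and Lax1) and none lower, and in lungs 5 were higher. Of the inhibitory receptors, 4 were higher in spleen (Pdcd1, Klrg1, Cd22 and Lilrb4a) and 3 in lungs (Pdcd1, Klrg1 and Lilrb4a). Substrates and partners differed, with Zap70 higher and 4 genes lower in spleen, among them Tec, Grap2 and Txk, and none called in lungs. The lists' median log2 differences in spleen were 0.35 for regulators, -0.09 for substrates and partners and 0.00243 for inhibitory receptors, beside 0 for all genes. Between skin and spleen ST2- Tregs 6 regulators were higher (Cblb, Pag1, Sla2, Ptpn22, Sh2d2a and Sit1) and 1 lower (Lax1), and 6 substrates and partners were higher and 1 lower (Vav1), shares close to the 30.9% of all genes called in that comparison.

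The 8 genes whose log2 levels were most like that of Lyn over the 67 libraries, among all genes tested, were Cd200r1, Id2, Klrg1, Fgl2, Adam8, Osbpl3, Cd44 and Cobll1. Pearson's r ran from 0.93 for Cd200r1 and Id2 to 0.90 for Cobll1. Cd200r1, an inhibitory receptor, rose from 27.1 CPM in spleen CD44lo to 85.6 in spleen ST2-, 372 in skin ST2- and 501 CPM in skin ST2+ Tregs (means), and Adam8, a membrane protease, from 0 to 31.8, 333 and 295 CPM. Cd44 itself was used in the sort. Within the 30 ST2- CD44hi libraries alone, r with Lyn was 0.77 to 0.86 for these 8. Il1rl1 had r = 0.80 over 67 libraries and ranked 122 among all genes. Over the 14 group means, which share libraries' tissue and sort, r of Lyn was -0.72 with Ptpn6, -0.69 with Lck, -0.55 with Fyn, -0.06 with Csk and 0.78 with Yes1.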

How the data were processed

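The authors deposited 1 table of raw counts per gene, made with STAR on GRCm38 and HTSeq 0.4.1 per the submitters' processing notes, from SMART-Seq v4 and NexteraXT libraries that do not keep strand. The reads are single and were 58 bases long before trimming. Amplification from few cells and reads without molecular identifiers leave low genes imprecise, and detected genes ran from 11877 to 19119 a library. No column of values was left unused (0), and libraries of 1000000 counts or fewer (3) were left out. Of 53465 IDs, 53274 matched GENCODE M21. No pair of libraries within a group was identical (129 pairs).

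The main test was edgeR 4.0.16 (quasi-likelihood, TMM factors from 0.886 to 1.09) in R 4.3.3, with 1 term for each of 14 groups, on protein-coding genes of at least 1 CPM in at least 10% of libraries. P-values were adjusted by Benjamini-Hochberg over 13191 genes, and the test was checked on simulated data. Alternatives were DESeq2 1.42.0, limma 3.58.1 (voom), other filters and factors, covariates, a mouse block and each mouse left out. Marker sums were compared by two-sided exact permutation tests (scipy 1.17.1). Likeness to Lyn was Pearson's r of log2 CPM with a prior count of 2.

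The replicate number names the mouse, so same-numbered samples come from the same animal. Their deviations from group means correlated at 0.0719 on average over 27 pairs (lowest -0.00503, 6 pairs over 0.1), and those of other mice at -0.0176.

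The members and lists were chosen with earlier results of these data known. Named genes were the members, up to 4 genes of each pathway list called in at least 1 ST2 contrast, by the smallest adjusted p, and the 8 genes most like Lyn. Other genes named were chosen after their values were seen. Some genes of these lists are not reported here.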

Additional observations from a re-analysis of the deposited data

Results flagged for a closer look

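In 15 of 87 tested sets of 4 or 5 libraries of 1 gene and 1 group, the highest or lowest library stood apart from the others by Dixon's criterion. Chance alone meets it in about 1 of 20 sets only where values are normally distributed, which low counts are not. A set with 1 library above 0 and the others at 0 always meets it, so the 15 of 87 cannot be held against that rate. None of the 15 was a Lyn value. Of Lck, the libraries that stood high were blood ST2+ mouse 2 at 914 CPM (others 730 to 760), VAT ST2- mouse 2 at 966 CPM (others 819 to 851) and spleen CD44lo mouse 4 at 1019 CPM (others 840 to 878). Of Csk, blood ST2+ mouse 5 stood high at 255 CPM (others 157 to 173) and skin ST2- mouse 4 low at 98.0 CPM (others 152 to 172). Of Yes1, blood ST2+ mouse 4 held 11.1 CPM, spleen ST2+ mouse 1 held 8.44 CPM (others 0.944 to 2.84) and blood ST2- mouse 5 held 0.587 CPM beside 4 libraries at 0. Of Fgr, 7 libraries stood high, mostly beside libraries at or near 0, namely blood ST2- mouse 2 at 18.7 CPM, spleen CD44lo mouse 5 at 13.99 CPM, skin ST2+ mouse 1 at 12.4 CPM, lung CD44lo mouse 5 at 9.11 CPM, colon ST2- mouse 5 at 9.07 CPM, lung ST2+ mouse 3 at 8.06 CPM and lung ST2- mouse 5 at 0.892 CPM.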

How the results depend on the processing

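The Lyn difference between ST2+ and ST2- Tregs stayed above 0 under every alternative in each tissue. Leaving out 1 mouse gave log2 differences of 3.06 to 3.92 in blood, 1.75 to 1.79 in spleen, 2.37 to 2.95 in lungs, 1.06 to 1.74 in VAT, 1.04 to 1.33 in colon and 0.46 to 0.64 in skin. It moved by more than the spread between replicates to 0.39 in VAT without libraries whose myeloid sum exceeded 235 CPM, an alternative that leaves no colon ST2+ library, and to 1.63 in colon and 0.70 in skin with the myeloid and B cell sums as covariates. The cause was not tested. Leaving out the colon ST2+ libraries was chosen after seeing the data, gives no colon value and moved none of the other Lyn differences by more than that spread.

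The count of members that differed between the 6 tissues in ST2+ Tregs was 2 when only the groups compared were fitted and 2 to 4 without 1 mouse. Calls against spleen in ST2+ Tregs, 7 by edgeR over 5 tissues, became 11 with voom and 4 with the covariates, and 4 to 8 without 1 mouse. Calls in the pathway lists between ST2+ and ST2- Tregs, 19 over 6 tissues, ran from 12 to 19 without 1 mouse, lowest without mouse 4. Of the 8 genes most like Lyn, 3 were shared with the 8 by Spearman's rho and 4 with the 8 over the 14 group means. The difference of the myeloid sum in spleen ST2+ Tregs ran from -98.1 to -69.8 CPM without 1 mouse and was no longer called, where 4 against 4 libraries can hardly pass after adjustment. As a mean of log2 CPM over the list it was -0.0702 and not called. Ptpn6 in VAT ST2+ Tregs lost its call with all 70 libraries (adjusted p = 0.053). With the mouse as a replicate block, 1 tissue call of Yes1 was lost and those of Ptpn6 in colon, Cbl, Plcg1 and Klrg1 in VAT and Cblb in lungs were gained, and no other call of a member or pathway gene changed. No called result turned in direction. Depth limits Yes1 and Fgr, whose medians were 8 and 0 counts, and blood, colon and CD44lo levels of Lyn rest on few counts or few libraries.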

Other observations

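The 3 libraries of fewer than 1000000 counts entered no comparison. The blood ST2+ library of mouse 1, with 488666 counts, held 11 counts of Lyn, 501 of Lck, 186 of Fyn, 13 of Csk and 0 of Ptpn6. The colon ST2+ library of mouse 5, with 62333 counts, held 6 of Lyn, 79 of Lck and 12 of Ptpn6, and that of mouse 2, with 3582 counts, held 1 of Lyn and 5 of Lck. In the libraries that were used, stromal and epithelial markers summed to 1434 ± 735 CPM (SD, n = 3) in colon ST2+ and 597 ± 614 CPM (n = 5) in colon ST2- Tregs (exact permutation adjusted p = 0.349).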
